A study of Gallus gallus with 2 samples.

Results

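The genes described here encode heterotrimeric G proteins, the proteins that regulate them, and the enzymes that make, break down and respond to cAMP. They were chosen by name alone, as genes whose only annotated symbol on the array starts with GNA, GNB, GNG, RGS, GPSM, ADCY, PDE, AKAP, PRKAR or PRKAC, with a further letter or digit after GNA and a digit after GNB, GNG, ADCY and PDE. The rule found 97 of the 13008 named genes, and 65 of them gave a signal above the background floor on both arrays. Of the 97, 4 share only a name with their family: GNB1L is a WD-repeat protein and not a G protein beta subunit, PDE6D is a carrier of prenylated proteins, PDE4DIP is a Golgi and centrosome scaffold, and PDE12 cuts short adenylate chains rather than cyclic nucleotides.

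The arrays measured RNA of the germinal disc region, the spot on the yolk surface that contains the oocyte nucleus, of yellow follicles ranked F5 to F7. The Bx hens had undergone surgical removal of the bursa of Fabricius, the organ where birds form B cells, on day 17 to 18 of incubation, and the control hens are labelled as controls, with no statement of a sham operation. Both groups were 25 weeks old, and each was 1 pool of 9 discs from 3 birds on 1 Affymetrix Chicken Genome Array, so there were 2 arrays and no replicate of either group. Strain is not given in the sources used here, no p-value is given, and variation between birds was not measured.

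A G protein couples a receptor in the cell membrane to an enzyme inside. The alpha subunit carries GTP, separates from the beta and gamma pair, and either stimulates adenylyl cyclase (Gs), inhibits it (Gi) or acts on phospholipase C (Gq), until RGS proteins speed the return to the GDP form. Adenylyl cyclases make cAMP, phosphodiesterases break it down, and protein kinase A (PKA), held in place by AKAP scaffolds, is its main target. In mammalian oocytes cAMP made through Gs holds the nucleus in meiotic arrest and PDE3A removes it, while in granulosa cells, which surround the oocyte, the gonadotropin receptors signal through the same route.

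The values are linear signals that the authors brought to a common level on each array, and a ratio is that of the Bx signal over the control signal. Each gene is represented by its brightest probe set, that with the highest mean log2 signal over the arrays, and the signals of different genes are not comparable as amounts of RNA. The floor was a signal of 36.4 on the Bx array and 42.6 on the control array. Across all 10168 named genes above both floors the median log2 ratio was 0.01, and its spread narrowed with brightness. When the genes were split by brightness into 4 equal groups, the SD was 0.49 in the dimmest, then 0.31 and 0.21, and 0.15 in the brightest. Real differences are part of these SDs, which are the only yardstick of error that 1 array per group allows besides the spread between probe sets of a gene.

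Of the markers of the tissue, all 19 granulosa genes on the array were above both floors, with signals of 259 to 19164 in the Bx pool and 195 to 20540 in the control pool. So were 14 of 15 oocyte and germ cell genes, with signals of 50.7 to 3027 in the Bx pool and 43.6 to 2743 in the control pool. The brightest of these were DAZL (3027 in the Bx pool and 2743 in the control pool) and ZP2 (1952 in the Bx pool and 2089 in the control pool). Others lay near the floor, such as DDX4 (70.6 in the Bx pool and 43.6 in the control pool). As 10168 of all 13008 named genes passed both floors, the counts alone say little. By the bright markers of both lists the discs held RNA of both cell types, and the arrays do not say which of them a gene comes from. The medians of these lists lay on opposite sides of 0, and that of all genes was 0.01. In the Bx pool 15 of 19 granulosa genes were lower, against 47.6% of all genes, with a median log2 ratio of -0.19. Their summed signal, in which the brightest genes weigh most, was 105961 in the Bx pool against 118647 in the control pool. Of the oocyte genes 12 of 14 were higher, against 52.4% of all genes, with a median of 0.26. Their summed signal was 8000 in the Bx pool against 7153 in the control pool. The largest gain in signal among them was that of GTSF1, 757 in the Bx pool and 416 in the control pool (0.86). The bright DAZL (0.14) and ZP2 (-0.10) went opposite ways. All other measured oocyte genes lay in the 2 dimmest of the 4 brightness groups, where the SDs were 0.49 and 0.31. No marker of either list was at 0. Fewer cells of a type and less RNA per cell cannot be told apart in such pools, and the part of cell makeup in the results below was not tested.

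As a group the G protein and cAMP genes differed little between the pools. Their median log2 ratio was 0.02, against 0.01 for all genes, and 34 were higher and 31 lower in the Bx pool. Of the 65, 41 (63.1%) were within 1.2-fold, against 71.2% of all genes. Past 1.5-fold were 7 members (10.8%), beside 7.74% of all genes, with 3 higher in the Bx pool (4.62%, beside 4.11%) and 4 lower (6.15%, beside 3.63%). The 3 were RGS6, AKAP8 and GNAO1, and the 4 were RGS14, GPSM1, PDE10A and AKAP6. At 2-fold, 3 members (4.62%) were past the threshold, beside 1.06% of all genes, with 1 higher (background 0.639%) and 2 lower (background 0.423%). The shares at 1.5-fold are near the background, and those at 2-fold rest on 3 genes. After a loess correction of the ratio for brightness the counts at 1.5-fold were 4 higher and 3 lower, because GNAQ passed the threshold and AKAP6 did not.

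**Figure D1:**
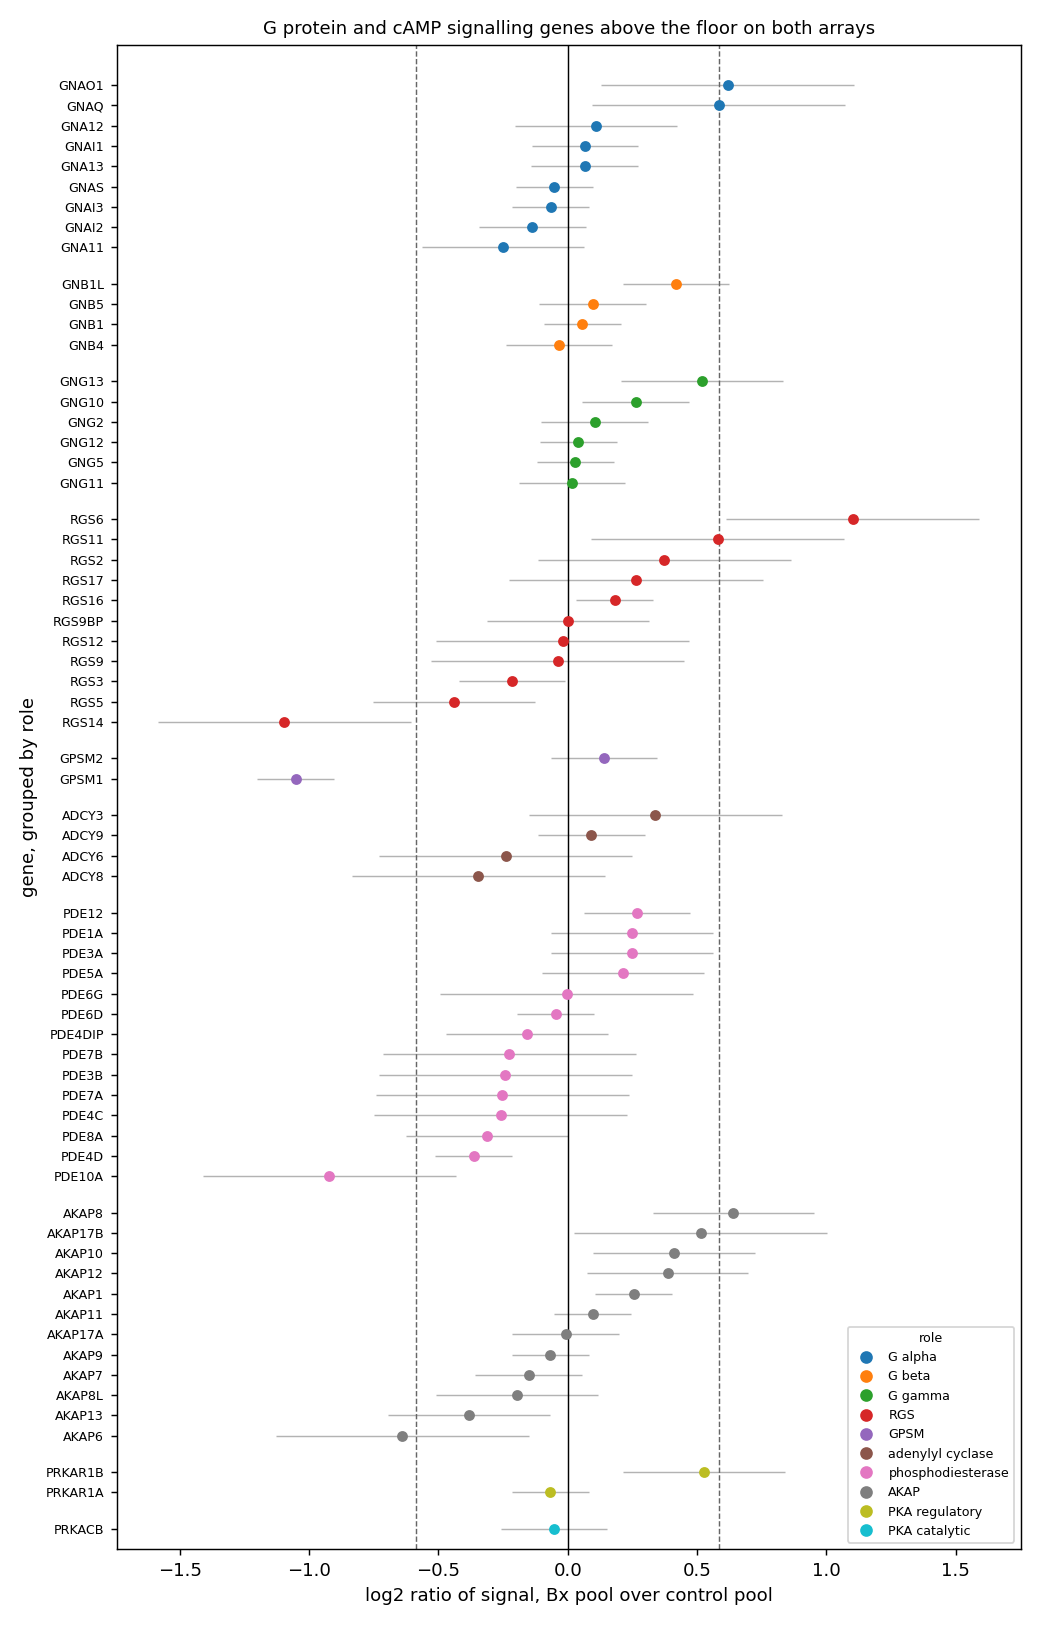
Each point is the log2 ratio of the Bx over the control signal (x axis) of 1 of the 65 genes above both floors (y axis, grouped and coloured by role), and each bar is plus and minus 1 SD of the ratios of all genes of like brightness. The dashed lines mark 1.5-fold. RGS6 lies farthest to the right and RGS14 and GPSM1 farthest to the left, and the bar of GPSM1 is the shortest of these.

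Most members past 1.5-fold were dim. Of the 20 members in the dimmest of the 4 brightness groups, 5 were past 1.5-fold either way (25%), beside 22.9% of all genes there. In the next group it was 1 of 16 members (6.25%, beside 6.22%), in the third 0 of 16 (beside 1.49%), and in the brightest 1 of 13 (7.69%, beside 0.354%). That bright member was GPSM1, and it had the lowest ratio of all 2542 genes in its brightness group and was the only one of them past 2-fold.

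**Figure D2:**
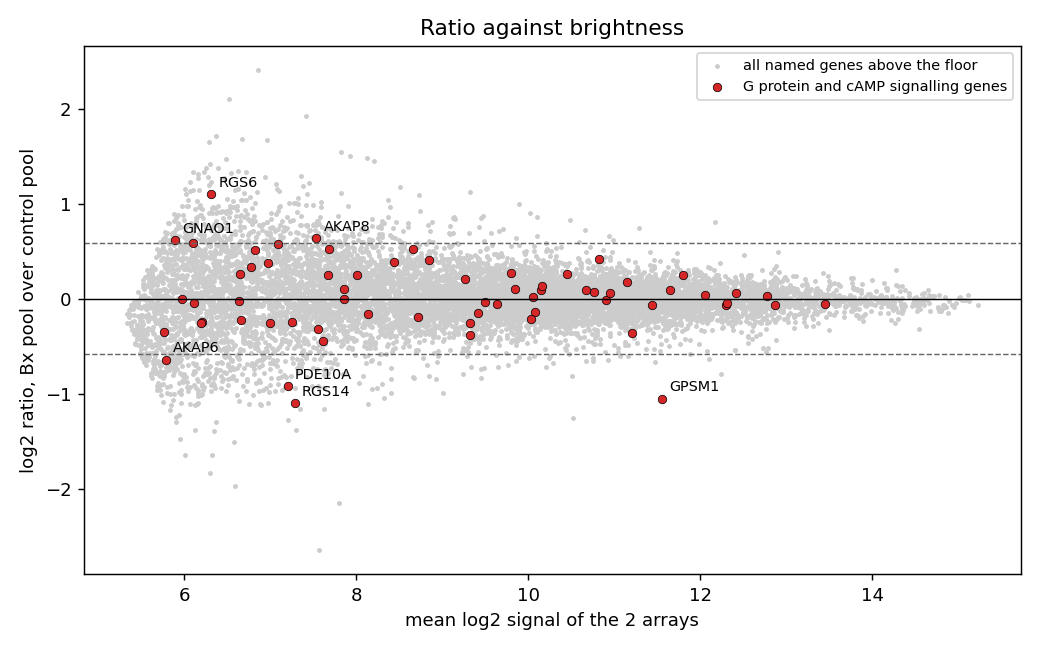
The x axis is the mean log2 signal of the 2 arrays and the y axis the log2 ratio of the Bx over the control pool. Grey points are the 10168 named genes above both floors, red points the 65 G protein and cAMP signalling genes, and dashed lines mark 1.5-fold. The 7 named genes lie past 1.5-fold, 6 of them at the dim end where the grey cloud is wide, and GPSM1 lies alone below it.

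GPSM1 and GPSM2 encode proteins that bind the GDP form of Gi alpha subunits through GoLoco motifs and keep it from rejoining the beta and gamma pair. GPSM1, also known as AGS3, had a signal of 2090 in the Bx pool and 4331 in the control pool, 2.07-fold lower (log2 ratio -1.05). Its other probe sets were also lower in the Bx pool but by much less: 693 in the Bx pool against 803 in the control pool (-0.21), then 421 in the Bx pool against 504 in the control pool (-0.26). Over the 3 probe sets the mean log2 ratio was -0.51 ± 0.47 (SD), so the probe sets agree on the direction and not on the size. GPSM2, also known as LGN, which orients the spindle of dividing cells, was 1202 in the Bx pool and 1091 in the control pool (0.14, 1 probe set).

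RGS12 and RGS14, the R12 members above the floor, are RGS proteins that also carry a GoLoco motif. RGS14 was 107 in the Bx pool and 228 in the control pool, 2.14-fold lower (log2 ratio -1.10). Its other probe set was near background and went the opposite way, with 47.8 in the Bx pool and 4.66, under the floor, in the control pool. RGS12 was nearly the same in the pools, with 99.0 in the Bx pool and 100.2 in the control pool (-0.02) and a mean of -0.05 ± 0.04 over 2 probe sets. Among these 4 GoLoco genes, a grouping made after the values were seen, the 2 lowest ratios of all 65 members were found beside 2 genes within 1.2-fold. RAP1GAP1 lies outside the naming rule and was also looked up after the values were seen. It belongs to a family of Rap GTPase activators with a GoLoco motif in mammals. Its signal was 37.1 in the Bx pool, just above the floor, and 103 in the control pool (-1.48). Only 1 of its 3 probe sets was above both floors, and it lay in the dimmest brightness group. No pattern of GoLoco genes can be read from these values.

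The R7 proteins RGS6, RGS7, RGS9 and RGS11 work as partners of the beta subunit GNB5 and act on Gi and Go. RGS6 was 117 in the Bx pool and 54.3 in the control pool, 2.15-fold higher (log2 ratio 1.10). Its other probe sets above the floor were also higher in the Bx pool, at 80.1 in the Bx pool against 44.8 in the control pool (0.84), then 84.8 in the Bx pool against 73.2 in the control pool (0.21), with a mean over 3 of 0.72 ± 0.46 (SD). It was the only member with more than 1 probe set past 1.5-fold in the same direction and above both floors. RGS11 was 166 in the Bx pool and 111 in the control pool, just short of 1.5-fold (1.495-fold, log2 ratio 0.58, 1 probe set). RGS9 was 68.1 in the Bx pool and 70.0 in the control pool (-0.04) on its only probe set above both floors. Among its others, 63.2 in the Bx pool against 14.6 in the control pool was above the floor in the Bx pool alone. So was 56.3 in the Bx pool against 41.2 in the control pool. RGS7 was under both floors on its brightest probe set (36.0 in the Bx pool and 39.0 in the control pool). Their partner GNB5 was 1686 in the Bx pool and 1576 in the control pool (0.10), with a mean of 0.22 ± 0.17 over 2 probe sets. RGS9BP, which anchors RGS9 at the membrane, was 232.3 in the Bx pool and 231.8 in the control pool (0.0029).

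Of the R4 proteins, small RGS proteins that act on Gi and Gq, 4 of 8 were above both floors and none was past 1.5-fold. RGS16 was 2408 in the Bx pool and 2123 in the control pool (0.18), with other probe sets at 0.31 and -0.63. RGS3 was 973 in the Bx pool and 1130 in the control pool (-0.22). Of its 6 probe sets above both floors 4 were lower and 2 higher, with a mean of -0.14 ± 0.32. Another 2 probe sets of RGS3 were above the floor in the Bx pool alone. They were 52.2 in the Bx pool against 5.17 in the control pool, then 48.9 in the Bx pool against 5.31 in the control pool. RGS2, which in mammals acts mainly on Gq, was 143 in the Bx pool and 110 in the control pool (0.37), and RGS5 was 169 in the Bx pool and 229 in the control pool (-0.44). Neither difference exceeded 1.5 SD of genes of like brightness. RGS17, of the RZ group, was 110.0 in the Bx pool and 91.6 in the control pool. Its 2 probe sets above both floors agreed closely (0.25 ± 0.02). In the RefSeq annotation of assembly GRCg7b the genes RGS4, RGS2, RGS13, RGS1, RGS21, RGS18 and RGS5 follow each other with no other protein-coding gene between them. Of the 6 among the members, RGS2 and RGS5 were above both floors, RGS4 was above the floor in the control pool alone, and RGS13, RGS1 and RGS18 were under both.

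GNAS and the GNAI genes were close to equal in the pools. GNAS, the stimulatory alpha subunit through which the gonadotropin receptors act, was 11006 in the Bx pool and 11401 in the control pool (-0.05), and its 5 probe sets above the floor had a mean of 0.06 ± 0.13. Of the inhibitory subunits, GNAI3 was 4924 in the Bx pool and 5149 in the control pool (-0.06), and GNAI2 1034 in the Bx pool and 1137 in the control pool (-0.14). GNAI1 was 1781 in the Bx pool and 1700 in the control pool (0.07), and all 3 of its probe sets were higher, with a mean of 0.25 ± 0.16. No difference among these 4 genes reached 1.2-fold on its brightest probe set.

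GNAO1, the Go alpha subunit of nerve and endocrine cells, was the alpha gene past 1.5-fold, at 73.5 in the Bx pool and 47.9 in the control pool (1.53-fold, log2 ratio 0.62). Its other probe set above both floors went the opposite way, with 43.8 in the Bx pool and 74.95 in the control pool (-0.77). A further probe set was 11.6 in the Bx pool and 44.2 in the control pool, above the floor in the control pool alone. These probe sets leave no direction for GNAO1. Of the Gq genes, which activate phospholipase C, GNAQ was 83.9 in the Bx pool and 56.0 in the control pool, just inside 1.5-fold (1.499-fold), and GNA11 was 587 in the Bx pool and 698 in the control pool (-0.25). The alpha subunits GNA13 (2030 in the Bx pool and 1939 in the control pool, 0.07) and GNA12 (240 in the Bx pool and 223 in the control pool, 0.11) had probe sets on both sides of 0. GNAT1 and GNAT3, the rod transducin and the gustducin alpha subunits, were under both floors, and the cone transducin GNAT2 was at 39.4 in the Bx pool and 34.1 in the control pool, next to the floor.

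Among the beta subunits GNB1 was 5579 in the Bx pool and 5362 in the control pool (0.06) and GNB4 713 in the Bx pool and 730 in the control pool (-0.03). GNB1L, which shares their name only, was the most different at 2097 in the Bx pool and 1569 in the control pool (0.42), with 2 probe sets that agreed (0.37 ± 0.07) and a difference of more than 2 SD of genes of like brightness. All 6 gamma subunits measured had a ratio above 0, against 52.4% of all genes, though most by little. GNG5 was 7058 in the Bx pool and 6912 in the control pool (0.03), GNG12 4314 in the Bx pool and 4194 in the control pool (0.04), and GNG11 1071 in the Bx pool and 1059 in the control pool (0.02). GNG10 was 1528 in the Bx pool and 1274 in the control pool (0.26), GNG13 246 in the Bx pool and 171 in the control pool (0.52), and GNG2 952 in the Bx pool and 885 in the control pool (0.10). With the arrays centred on their medians 5 of the 6 were above 0, and likewise with the mean over probe sets and without _x_at or _s_at probe sets. The remaining gamma gene, GNG4, was above the floor in the control pool alone (31.4 in the Bx pool and 46.5 in the control pool). With no floor 6 of 7 were above 0.

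Of the 7 adenylyl cyclases on the array 4 were above both floors, and none was past 1.5-fold. ADCY9, a widely expressed form, was 1171 in the Bx pool and 1099 in the control pool (0.09). ADCY3, which makes cAMP in rodent oocytes, was 123 in the Bx pool and 97.3 in the control pool (0.34), ADCY6 140 in the Bx pool and 166 in the control pool (-0.24), and ADCY8, a calcium-stimulated form, 48.2 in the Bx pool and 61.2 in the control pool (-0.35). The last 3 lay in the dimmest group, where each difference was under 1 SD. Another probe set of ADCY8 was 35.7 in the Bx pool and 75.2 in the control pool. A further probe set of ADCY8 was 13.3 in the Bx pool and 58.7 in the control pool. The other probe set of ADCY9 was 21.2 in the Bx pool and 75.8 in the control pool. These probe sets were above the floor in the control pool alone.

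The phosphodiesterases leaned to the lower side in the Bx pool. Of the 11 measured genes for subunits of enzymes that split cyclic nucleotides, 8 (72.7%) had the lower signal there, against 47.6% of all genes. The 8 include the inhibitory subunit PDE6G, whose log2 ratio was near 0 (-0.0034). The median log2 ratio of the 11 was -0.24, but only PDE10A was past 1.5-fold. With no floor 11 of 19 were lower. All 5 cAMP-specific enzymes measured were lower on their brightest probe sets, within a narrow range of -0.36 to -0.23. With no floor 5 of 7 were lower, as PDE4B (0.68) and PDE8B (0.88), both under both floors, were higher. PDE4D, which in mammalian granulosa cells limits the response to gonadotropin, was 2078 in the Bx pool and 2673 in the control pool (1.29-fold lower, -0.36). Its next probe sets were 1704 in the Bx pool against 2082 in the control pool (-0.29), then 470 in the Bx pool against 745 in the control pool (-0.66). The last was 140 in the Bx pool against 136 in the control pool (0.04), and the mean over all was -0.32 ± 0.29 (SD). Its difference was more than 2 SD of genes of like brightness. PDE8A, an enzyme with high affinity for cAMP, was 169 in the Bx pool and 210.0 in the control pool (-0.31), and its 2 probe sets agreed (-0.25 ± 0.08). PDE4C (66.8 in the Bx pool and 80.0 in the control pool), PDE7A (117 in the Bx pool and 139 in the control pool) and PDE7B (93.7 in the Bx pool and 109.5 in the control pool) were dim, and their differences were under 1 SD. The other probe set of PDE7B was higher in the Bx pool (0.86), and with the mean over probe sets 4 of the 5 were lower.

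PDE3A, the enzyme that removes cAMP in mammalian oocytes, had no settled direction. Its brightest probe set was 279 in the Bx pool and 235 in the control pool (0.25), and its other was 79.0 in the Bx pool and 154 in the control pool (-0.96), for a mean of -0.36 ± 0.85 (SD). PDE3B, its relative in fat and liver, was 67.7 in the Bx pool and 80.0 in the control pool (-0.24). PDE10A, best known from the striatum of the brain, was 107 in the Bx pool and 203 in the control pool, 1.89-fold lower (-0.92). Its other probe set above both floors was 105 in the Bx pool and 60.3 in the control pool (0.81). A further probe set was 10.2 in the Bx pool and 45.1 in the control pool, above the floor in the control pool alone. The remaining probe set of PDE10A was under both floors (9.95 in the Bx pool and 26.5 in the control pool). PDE1A, a calmodulin-dependent enzyme, was 222 in the Bx pool and 187 in the control pool (0.25), with 2 probe sets that agreed (0.20 ± 0.06). PDE5A, which splits cGMP, was 664 in the Bx pool and 573 in the control pool (0.21). PDE6G, an inhibitory subunit of the photoreceptor enzyme, was 62.8 in the Bx pool and 63.0 in the control pool. Of those that share the name only, PDE6D was 5004 in the Bx pool and 5166 in the control pool (-0.05), PDE12 974 in the Bx pool and 809 in the control pool (0.27), and PDE4DIP 266 in the Bx pool and 297 in the control pool (-0.16).

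**Figure D3:**
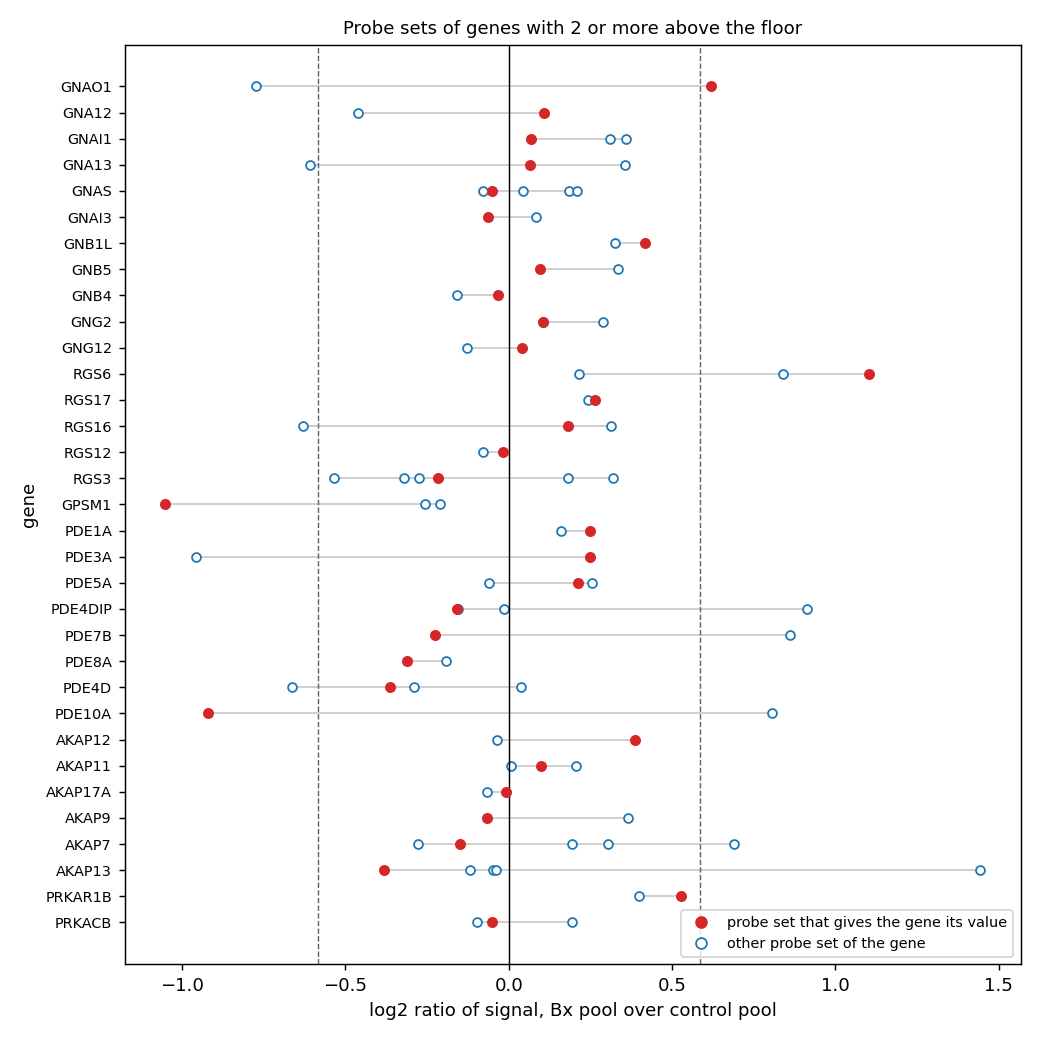
The x axis is the log2 ratio of the Bx over the control pool for each probe set above both floors, for the 33 members with at least 2 of them (y axis). Filled points give the gene its value, open points are its other probe sets, and dashed lines mark 1.5-fold. All probe sets of RGS6 lie right of 0 and all of GPSM1 left of it, while GNAO1, PDE3A and PDE10A have points on both sides.

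Probe sets of a gene often disagreed, here as elsewhere on the array. Of 33 members with at least 2 probe sets above both floors, 14 (42.4%) had all of them on the same side of 0, beside 45.5% of all such genes. Of the 7 members past 1.5-fold, 4 had a further probe set above the floor, and RGS6 and GPSM1 were those in which all agreed in direction.

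Protein kinase A is a complex of regulatory and catalytic subunits. The regulatory subunit PRKAR1A was 7309 in the Bx pool and 7661 in the control pool (-0.07, 1 probe set), and the catalytic subunit PRKACB was 782 in the Bx pool and 810 in the control pool (-0.05), with a mean of 0.02 ± 0.16 over 3 probe sets. PRKAR1B is the other type I regulatory subunit and in mammals mainly a brain form. Its 2 probe sets above both floors agreed (0.46 ± 0.09). The brighter was 487 in the Bx pool and 338 in the control pool (1.44-fold higher, 0.53). That difference was more than 1.5 SD of genes of like brightness. PRKAR2B was under both floors.

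AKAPs tether PKA to a place in the cell, and 12 of 14 were above both floors, 6 higher and 6 lower in the Bx pool. AKAP8, a nuclear scaffold that binds chromatin, was 232 in the Bx pool and 149 in the control pool (1.56-fold higher, 0.64, 1 probe set), a difference of more than 2 SD. Its neighbour in the genome and close relative AKAP8L was 392 in the Bx pool and 448.5 in the control pool (-0.20). AKAP6, a scaffold of the nuclear envelope in muscle, was 44.1 in the Bx pool and 68.7 in the control pool (1.56-fold lower, -0.64, 1 probe set), close to the floor. AKAP1, which holds PKA on mitochondria, was 3895 in the Bx pool and 3262 in the control pool (0.26), more than 1.5 SD for its brightness. AKAP11 was 3320 in the Bx pool and 3103 in the control pool (0.10), with 3 probe sets that were all higher, and AKAP9, a scaffold of the centrosome and Golgi, was 2701 in the Bx pool and 2831 in the control pool (-0.07). AKAP10 was 531 in the Bx pool and 400 in the control pool (0.41), AKAP12, known as gravin, 396 in the Bx pool and 303 in the control pool (0.39), and AKAP17B 135 in the Bx pool and 94.6 in the control pool (0.51). AKAP13 was 560 in the Bx pool and 729 in the control pool (-0.38). Of its 5 probe sets above both floors 1 was at 1.44 and the other 4 were below 0. AKAP7 (646 in the Bx pool and 717 in the control pool) and AKAP17A, a splicing regulator (1906 in the Bx pool and 1916 in the control pool), differed by less than 1.2-fold on their brightest probe sets. The 5 probe sets of AKAP7 lay on both sides of 0, up to 0.69, with a mean of 0.15 ± 0.38 (SD).

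The other 32 members were not above both floors. By their brightest probe sets, 19 were under the floor in both pools, 5 were above it in the Bx pool alone and 8 in the control pool alone. Of all named genes 10168 of 13008 were above both floors. How the rest of those divided between the pools was not counted, so the 5 and 8 have no background share. None of the 32 was above the floor by as much as 1 log2 unit in the pool where it was measured, so these differences have only a bound. That bound is the signal in that pool over the floor of the other pool. It takes the signal as exact and leaves out its error. The largest was that of RGS4, an R4 protein, with 4.0 in the Bx pool and 72.7 in the control pool, with the Bx signal at least 2.0-fold lower. The adenylyl cyclase ADCY7 was 35.1 in the Bx pool and 69.9 in the control pool, at least 1.92-fold lower. PDE11A was at least 1.55-fold lower (signals of 33.6 in the Bx pool and 56.2 in the control pool) and AKAP5 at least 1.54-fold lower (signals of 33.9 in the Bx pool and 56.1 in the control pool). GNAL, the olfactory form of Gs alpha, had no direction: its brightest probe set was 32.2 in the Bx pool and 53.3 in the control pool, and its other 41.8 in the Bx pool and 5.8 in the control pool. The Gi family member GNAZ was at least 1.33-fold higher (signals of 56.8 in the Bx pool and 24.8 in the control pool). The photoreceptor genes PDE6C and PDE6H were under both floors and PDE6B was 47.1 in the Bx pool and 24.1 in the control pool, while of 8 photoreceptor markers on the array 3 were above both floors, with signals of at most 101 in the Bx pool and 94.4 in the control pool.

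**Figure D4:**
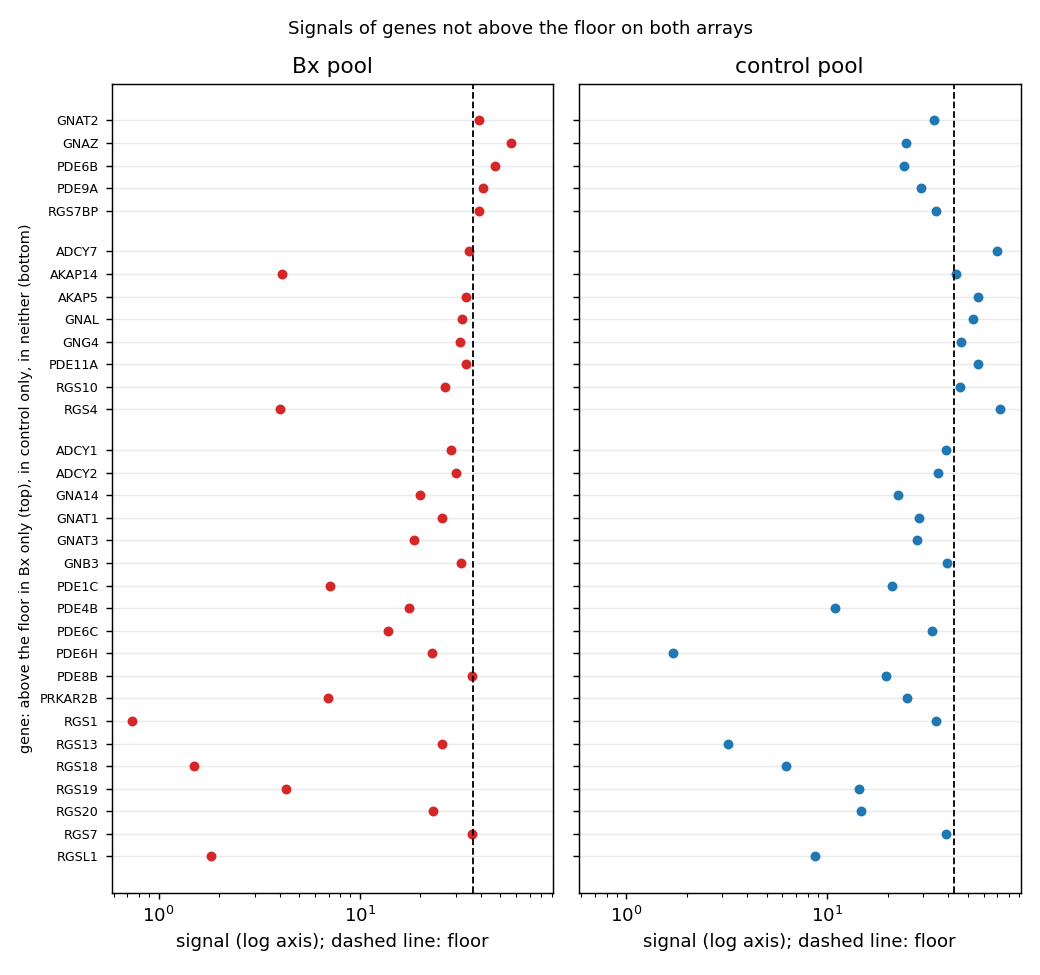
Signals (x axes, log scale) of the 32 genes not above both floors (y axis), in the Bx pool on the left and the control pool on the right, with the floor of each array as a dashed line. All signals above the floor stay under 73, and RGS4 has the highest of them, in the control pool.

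Genes up and down the pathway from these proteins were set beside them, in lists chosen with earlier results of these data known. They are to be read against the 4.11% of all genes past 1.5-fold higher and 3.63% lower. Of the receptors that act through Gs or Gi, 10 were measured, with a median log2 ratio of -0.18. Past 1.5-fold 0 were higher and 2 lower (20%, beside 3.63% of all genes). Both lie in the dimmest brightness group, where 11.4% of all genes were that much lower. The 11.4% is not a like share for the 10, which also include genes of the brightest group. The luteinizing hormone receptor LHCGR was 4131 in the Bx pool and 4477 in the control pool (-0.12), the follicle-stimulating hormone receptor FSHR 2336 in the Bx pool and 2820 in the control pool (-0.27), and GPR12, whose rodent form keeps oocyte cAMP high, 155 in the Bx pool and 188 in the control pool (-0.27). The 2 lower were the prostaglandin receptor PTGER4 (36.6 in the Bx pool and 56.5 in the control pool) and the membrane progesterone receptor PAQR5 (47.7 in the Bx pool and 83.1 in the control pool), both dim. A further 4 receptors, not among the 10, were above the floor in the Bx pool alone. They were VIPR1 (93.1 in the Bx pool and 37.6 in the control pool) and PAQR7 (80.2 in the Bx pool and 29.1 in the control pool). The others were ADORA2A (61.6 in the Bx pool and 16.5 in the control pool) and MTNR1B (51.8 in the Bx pool and 6.61 in the control pool). How many of all named genes were above the floor in the Bx pool alone was not counted. These 4 dim receptors are therefore given as values only.

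Of 12 other cAMP and cGMP sensors, makers and carriers measured, 1 was higher, 1 was lower and the median was -0.14. RAPGEF4, a cAMP-activated exchange factor for Rap, was 129 in the Bx pool and 78.1 in the control pool (0.72, mean 0.55 ± 0.74 over 3 probe sets), and GUCY2C, a guanylyl cyclase receptor, was 90.9 in the Bx pool and 150 in the control pool (-0.72). The cAMP exporter ABCC4 was 3201 in the Bx pool and 3810 in the control pool (-0.25) on its brightest probe set. Its 3 probe sets above the floor lay on both sides of 0, with a mean of 0.26 ± 0.80. Of 14 PKA inhibitors and G protein helpers 1 was higher, the receptor kinase GRK5 (82.9 in the Bx pool and 51.7 in the control pool, 0.68, mean 0.30 ± 0.54 over 2 probe sets), and 1 lower, CAP2, of a family that binds adenylyl cyclase in yeast (219 in the Bx pool and 350 in the control pool, -0.68, mean -0.25 ± 0.61 over 2). The probe sets of both genes went opposite ways, and the median of the list was -0.06. RIC8A, the chaperone of Gi and Gq alpha subunits, was 1098 in the Bx pool and 1103 in the control pool, and RIC8B, that of Gs, 415 in the Bx pool and 534 in the control pool (-0.36, mean -0.33 ± 0.05 over 2 probe sets). None of 11 measured genes of CREB, the transcription factor that PKA activates, and its partners was past 1.5-fold, with a median of 0.0046, and neither was any of 9 measured cAMP-responsive targets, with a median of 0.0068. Among these targets, STAR (658 in the Bx pool and 865 in the control pool, -0.39) and CYP11A1 (5538 in the Bx pool and 7006 in the control pool, -0.34) are also granulosa markers, and the prostaglandin synthase gene PTGS2 was 972 in the Bx pool and 986.5 in the control pool (-0.02).

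**Figure D5:**
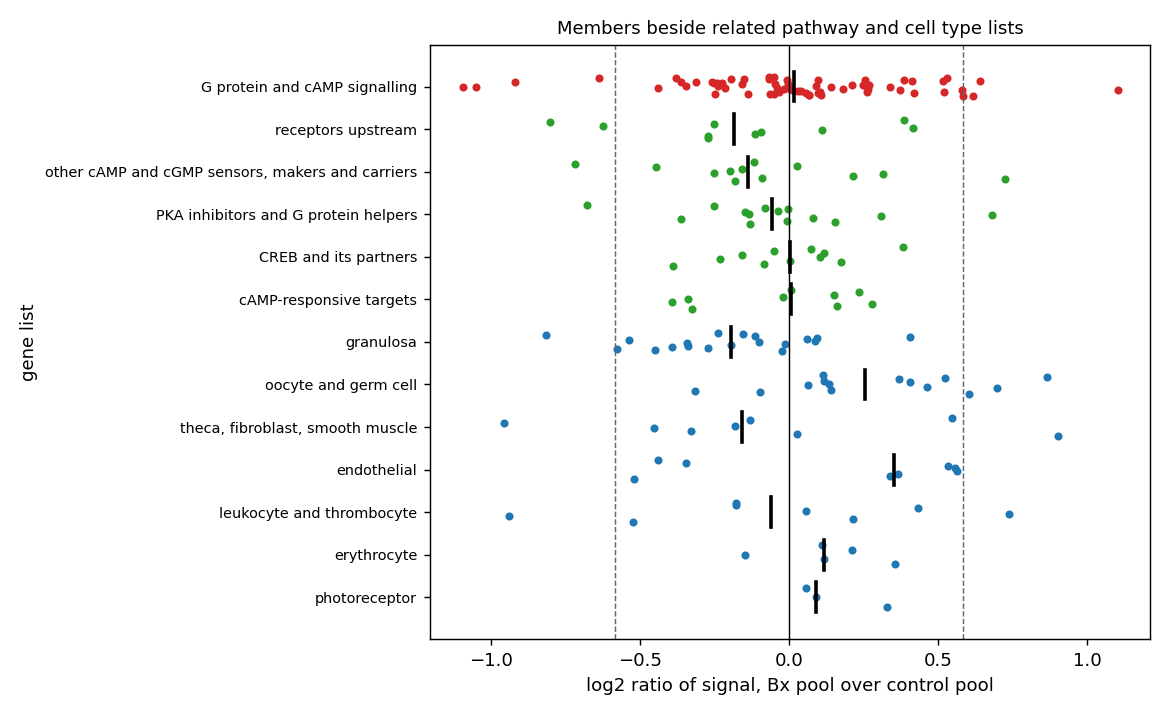
Each point is the log2 ratio of the Bx over the control pool (x axis) of a gene above both floors, for the G protein and cAMP signalling genes (red), 5 pathway lists (green) and 7 cell type marker lists (blue) on the y axis, with a black bar at each median. The members centre near 0, the granulosa list below it at -0.19 and the oocyte list above it at 0.26.

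Markers of further cell types were dimmer, apart from a few. Of the 14 theca, fibroblast and smooth muscle genes on the array 8 were above both floors, with a median log2 ratio of -0.16. The same values were 8 of 12 and 0.35 for the endothelial list, 8 of 15 and -0.06 for leukocytes and thrombocytes, 5 of 6 and 0.12 for erythrocytes, and 3 of 8 and 0.09 for photoreceptors. The part of these cells in any difference was not tested.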

How the data were processed

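Total RNA (100 ng) of each pool was labelled by in vitro transcription and hybridised to a 1-colour Affymetrix Chicken Genome Array, per the labels' protocols. The deposited values are linear signal intensity per probe set, which the authors computed with MAS5 according to the submitters' processing notes. For its version and scaling target, nothing is given in the sources used here. The mean without the lowest and highest 2% of each array's intensity values was 500.1 on both arrays, so a change in total mRNA would not show. Detection calls and probe-level files were not used here.

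Signals were kept as scaled and taken to log2 without a pseudocount. The floor was the 95th percentile of the 746 probe sets with neither the chicken nor the control prefix, per array. Probe sets took their names from the platform annotation at GEO, which may be outdated: 27166 of 37693 chicken probe sets had 1 symbol, 177 several and 10350 none. Of the 97 members, 94 had their gene ID in the RefSeq table of assembly GRCg7b, with the same symbol. No coordinates or sequences are given. With 1 array per group no test was possible, and their number limits the precision. Log2 ratios, counts past 1.5-fold and 2-fold and medians are described beside the same over all genes. Both signals are given for members past 1.5-fold, the 3 with the highest signal in each role, genes with a described place in meiotic arrest or the gonadotropin response, and most others. The members and lists were chosen with earlier results of these data known. The calculation of ratios was tested on simulated data with known changes. Alternatives were median centring, quantile normalization, loess (fraction 0.3), no floor, a floor raised, per array, to the 75th percentile among chicken probe sets, a pseudocount of 16, the mean over probe sets, no _x_at or _s_at probe sets, a 3-fold threshold and, chosen after seeing the data, genes whose probe sets share a sign. Python 3.11.15, pandas 2.3.3 and statsmodels 0.14.6 were used.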

Additional observations from a re-analysis of the deposited data

How the results depend on the processing

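The median log2 ratio of the members stayed between -0.04 and 0.05 over all alternatives. Counts at 1.5-fold (3 higher, 4 lower) and 2-fold (1 higher, 2 lower) held within 1.5 times after median centring, quantile normalization and loess, without _x_at and _s_at probe sets and with genes whose probe sets share a sign. With no floor they were 10 higher and 19 lower of 97 members at 1.5-fold (all genes: 10.9% and 10.3%). At 2-fold they were then 4 higher and 11 lower (all genes: 5.91% and 5.69%). These counts rose because 32 genes near background were added. With the stricter floor, which kept 32 members, they were 0 higher and 1 lower at 1.5-fold (all genes: 0.375% and 0.518%). At 2-fold they were again 0 and 1 (all genes: 0% and 0.0357%), the 1 being GPSM1. With the mean over probe sets 2 were lower at 1.5-fold (all genes: 3.17%). At 2-fold 0 were then higher and 1 lower (all genes: 0.511% and 0.403%). With the pseudocount 0 were higher and 1 lower at 2-fold (all genes: 0.364% and 0.187%). At 3-fold 0 were higher and 0 lower (all genes: 0.0688% and 0.059%). With the mean over probe sets GNAO1, past 1.5-fold on its brightest probe set, turned to -0.078, PDE10A shrank to -0.06, GPSM1 to -0.51 and RGS6 to 0.72. Of genes within 1.5-fold with a described place in meiotic arrest or the gonadotropin response, PDE3A turned to -0.36 and GNAS to 0.06. GNAI3 turned to 0.0088 and PRKACB to 0.02, and GNAI1 moved to 0.25. Further members changed sign, among them AKAP13 (to 0.17), PDE7B (to 0.32) and GNA12 (to -0.18). The AKAPs were then 9 higher and 3 lower, beside 6 and 6 on their brightest probe sets. No paired analysis was possible because each group was 1 array. The lack of replicates and the disagreement between probe sets limit these values, as does nearness to the floor for dim members such as GNAO1. Leaving out a replicate could not be tried.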
